A study of Mus musculus with 22 samples.

Results

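The genes described here are 10 that mark astrocytes in brain tissue, namely *Gfap*, *Aqp4*, *Aldh1l1*, *S100b*, *Slc1a2*, *Gja1*, *Aldoc*, *Slc4a4*, *Sox9* and *Fgfr3*. They were given as a list of names, and each was found through its Ensembl identifier, so that all 10 were present among the 39179 genes of the count tables. RNA-seq was carried out on 22 mouse samples of WT and *Phf8* KO genotype on a B6x129SvJ strain background. *Phf8* is an X-linked gene for a histone demethylase, and in the KO allele exons that encode part of its catalytic domain were removed by Cre recombination in ESCs, so every cell of the KO animals carries the deletion. The samples were ESCs grown out from blastocysts (2 WT and 2 KO), NPCs grown as a monolayer from E16.5 embryos (3 and 3), ventral striatum (STR, 3 and 3) and prefrontal cortex (PFC, 3 and 3), the last both taken at 2 months of age. No label tells whether samples of a group came from separate animals or cultures, so p-values measure the spread between these samples, which may be technical in part.

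Astrocytes are glial cells that take up glutamate and potassium after synaptic activity, move water and bicarbonate, store glycogen and pass metabolites to each other through gap junctions. They arise late in brain development from the same radial glia and neural progenitors that first make neurons, and several genes used as astrocyte markers in adult tissue are already active in those progenitors. The 10 genes span these roles. *Gfap* encodes an intermediate filament protein, *S100b* a calcium-binding protein, *Slc1a2* the glutamate transporter GLT-1, *Aqp4* the water channel of astrocyte endfeet, *Gja1* the gap junction protein connexin 43, *Slc4a4* a sodium bicarbonate cotransporter, *Aldoc* the brain form of the glycolytic enzyme aldolase, *Aldh1l1* an enzyme of folate metabolism, *Sox9* a transcription factor of glial specification and *Fgfr3* a fibroblast growth factor receptor of progenitors and astrocytes.

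Promoter windows of the 250 bases before the annotated start were taken from RefSeq on GRCm38.p6, which held 11 windows for 8 of the 10 genes. Some genes thus had further windows at other annotated starts, and a single window per gene is printed below. Only the printed window of *S100b* lies outside the span of its gene in GENCODE M21, and the others lie within it. Those of *Aqp4* and *Sox9* were not used here. The windows below are shown because these 5 genes behave differently in the results: *Gfap* was the only gene of the 10 that passed the test for a KO effect, *Aldh1l1* and *Aldoc* were lower in brain than in NPCs, and *S100b* and *Slc1a2* were higher in brain. Each sequence is written 5′ to 3′ on the strand of the gene and ends at the base before the start. Capitals mark matches on either strand to CANNTG (the E-box read by basic helix-loop-helix factors), TTGGC (an arm of the nuclear factor I site) or TTCNNNGAA (the STAT palindrome). The windows are chr11:102897201-102897450 on the minus strand for *Gfap*, and on the plus strand chr6:90550543-90550792 for *Aldh1l1*, chr11:78323948-78324197 for *Aldoc*, chr10:76253586-76253835 for *S100b* and chr2:102706188-102706437 for *Slc1a2*.
Gfap: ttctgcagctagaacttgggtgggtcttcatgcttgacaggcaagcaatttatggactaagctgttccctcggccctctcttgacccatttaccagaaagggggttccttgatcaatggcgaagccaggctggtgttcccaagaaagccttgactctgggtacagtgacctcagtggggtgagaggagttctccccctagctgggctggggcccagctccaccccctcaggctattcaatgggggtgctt
Aldh1l1: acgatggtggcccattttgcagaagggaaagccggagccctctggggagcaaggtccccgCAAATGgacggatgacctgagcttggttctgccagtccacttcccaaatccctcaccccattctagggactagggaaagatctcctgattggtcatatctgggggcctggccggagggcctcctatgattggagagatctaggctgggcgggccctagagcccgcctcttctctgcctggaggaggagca
Aldoc: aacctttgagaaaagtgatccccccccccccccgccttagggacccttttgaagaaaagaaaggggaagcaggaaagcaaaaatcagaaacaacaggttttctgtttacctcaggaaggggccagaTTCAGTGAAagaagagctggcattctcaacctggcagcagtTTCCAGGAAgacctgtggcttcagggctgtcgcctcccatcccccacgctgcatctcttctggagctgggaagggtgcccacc
S100b: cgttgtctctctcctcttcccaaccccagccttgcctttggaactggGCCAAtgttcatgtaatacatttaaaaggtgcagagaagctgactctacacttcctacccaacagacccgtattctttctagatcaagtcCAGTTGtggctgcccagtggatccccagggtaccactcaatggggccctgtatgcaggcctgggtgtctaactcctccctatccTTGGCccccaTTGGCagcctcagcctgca
Slc1a2: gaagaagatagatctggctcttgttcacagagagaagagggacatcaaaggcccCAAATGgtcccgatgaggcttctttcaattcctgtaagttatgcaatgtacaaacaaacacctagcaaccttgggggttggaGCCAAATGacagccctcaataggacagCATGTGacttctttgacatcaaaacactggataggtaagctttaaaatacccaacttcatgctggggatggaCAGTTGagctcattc

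The window of *Gfap* held none of the 8 patterns searched. *Aldoc* held TTCNNNGAA in 2 places, starting 124 and 83 bases before the start, and was the only one of the genes with that pattern, which 7.02% of 32851 windows of the same length held. *S100b* held TTGGC in 3 places, 203, 29 and 19 bases before the start, and *Slc1a2* held it once, 114 bases before the start, where it overlaps an E-box at 112 bases. A window of *Aldoc* that is not printed held TTGGC 146 bases before its start. Over all 11 windows, printed or not, TTGGC was in 5 against 41.5% of all windows, and CANNTG in 6 against 66.2%. None of the 11 windows held TATAAA (12.4% of all windows), the SOX core ACAATG (10.7%) or ATTGTT (9.42%), the octamer ATTTGCAT (1.6%) or the full nuclear factor I palindrome (0.0365%). These matches describe the letters of the windows only.

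Reads counted on genes were 5898286 to 15539811 per library, with the cell cultures at 11455757 or more and the brain samples at 10148073 or fewer. Levels are given as CPM (counts per megaread on genes, with TMM normalisation over all 22 libraries), and between genes as RPKM, the same value per kilobase of merged exons. *Phf8* was lower in every KO than in every WT library of its tissue, at 0.288 to 0.391 of the WT mean, and the counts cover the whole gene, including exons outside the deletion. In edgeR's quasi-likelihood test with an FDR under 0.05 it passed in PFC (log2 difference -1.37, FDR 0.0019) and NPCs (-1.415, FDR 0.0285). *Phf8* did not pass in STR (-1.37, FDR 0.0956) or ESCs (-1.79), so genes without a call in those tissues may still differ. NPC replicate 2 of both genotypes stood apart, with 7.48% (WT) and 5.1% (KO) of genes more than 2-fold from the other 2 libraries of the group, against 3.35% or less for the other NPC libraries. STR KO replicate 1 carried hypothalamus markers, summed at 202 CPM against 15.5 to 35.1 CPM in the other STR libraries. *Slc17a7*, a marker of glutamatergic neurons, had 352 reads in that library, 2107 to 2971 in the other STR libraries and 3353 to 4093 in PFC libraries. The 10 neuron markers together summed to 3225 CPM in that library and to 3200 to 3796 CPM in the other STR libraries. The part of such differences between STR libraries in the values below was not tested. In the cultures the defining genes of other brain cells were close to absent, since 0 to 2 reads per NPC library fell on the microglial receptor *Csf1r*, and neuronal *Rbfox3* had 4 to 14. The 12 neural stem and progenitor markers summed to 7543 to 9792 CPM in NPCs and to 251 to 311 CPM in brain, and the 8 pluripotency markers to 4418 to 5391 CPM in ESCs and at most 6.63 CPM elsewhere.

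*Gfap* (ENSMUSG00000020932, chr11:102887336-102900912 of GRCm38, minus strand) varied most between NPC libraries. It was at 105, 19.5 and 187 CPM in WT NPCs, at 93.2, 94.1 and 67.8 CPM in WT STR and at 147, 149.9 and 149 CPM in WT PFC. All WT PFC libraries lay above all WT STR libraries, whereas the WT NPC libraries spanned both regions. In ESCs only 6 to 12 reads per library fell on the gene.

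*S100b* (chr10:76253853-76261159) and *Slc1a2* (chr2:102658659-102790784) were higher in every brain library than in every NPC library. *S100b* was at 39.4, 63.1 and 36.7 CPM in WT NPCs, at 94.6, 105 and 105 CPM in WT STR and at 103, 105 and 127 CPM in WT PFC. *Slc1a2* was at 667, 513 and 623 CPM in WT NPCs, at 857, 890.1 and 858 CPM in WT STR and at 1082, 1028 and 1144 CPM in WT PFC. For *Slc1a2* the 2 regions of WT animals did not overlap either, and for *S100b* they did. In ESCs *S100b* had 0 to 3 reads and *Slc1a2* 5 to 8 reads per library.

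The membrane proteins *Aqp4*, *Gja1* and *Slc4a4* differed among themselves. *Aqp4* (chr18:15389496-15410982) was at 461, 68 and 345 CPM in WT NPCs and between 93.2 and 122 CPM in the 6 WT brain libraries, so that WT NPC replicate 2 lay below brain and the other NPC libraries above it. *Gja1* (chr10:56377330-56402513) was at 426, 118 and 302 CPM in WT NPCs and between 161 and 185 CPM in WT brain, with the same library below brain. *Gja1* was the only one of the 10 genes at a brain-like level in ESCs, with 169 and 229 CPM in WT and 226 and 269 CPM in KO ESCs. *Slc4a4* (chr5:88886818-89239653) was at 799, 582 and 690.3 CPM in WT NPCs, between 207 and 233 CPM in WT STR and between 135 and 174 CPM in WT PFC, and its neighbouring tissues did not overlap in either genotype.

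The enzymes *Aldh1l1* and *Aldoc* were both high in NPCs, but *Aldh1l1* not in every library. *Aldh1l1* (chr6:90486427-90600203) was at 988, 63 and 926 CPM in WT NPCs and at 861, 537 and 824 CPM in KO NPCs, against 61.2 to 85.4 CPM in the 12 brain libraries. WT NPC replicate 2 was thus within the brain range and the other 5 NPC libraries far above it. *Aldoc* (chr11:78322968-78327781) was at 848, 1002 and 804 CPM in WT NPCs and between 238 and 339 CPM in WT brain, with no overlap, and reached 40.8 to 54 CPM in ESCs.

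The regulators *Sox9* and *Fgfr3* separated NPCs from brain in every library. *Sox9* (chr11:112782224-112787760) was at 340.2, 222 and 398 CPM in WT NPCs and between 31.6 and 42.8 CPM in WT brain. *Fgfr3* (chr5:33721674-33737068) was at 520, 532 and 604 CPM in WT NPCs and between 111 and 158 CPM in WT brain. In ESCs *Sox9* was at 0.904 to 4.28 CPM and *Fgfr3* at 3.45 to 5.63 CPM, the lowest levels of both genes. Per kilobase, *Aldoc* was the highest of the 10 genes in WT NPCs (271 RPKM), WT STR (79.4 RPKM) and WT PFC (87.5 RPKM). *Sox9* was the lowest in both regions and genotypes (8.39 to 9.54 RPKM), and rank 3 in NPCs of both genotypes (77.4 RPKM in WT). Within a brain group of 3 libraries the CV of the 10 genes had a median of 5.79% to 8.48% and in NPCs of 29.6% (WT) and 25% (KO).

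**Figure D1:**
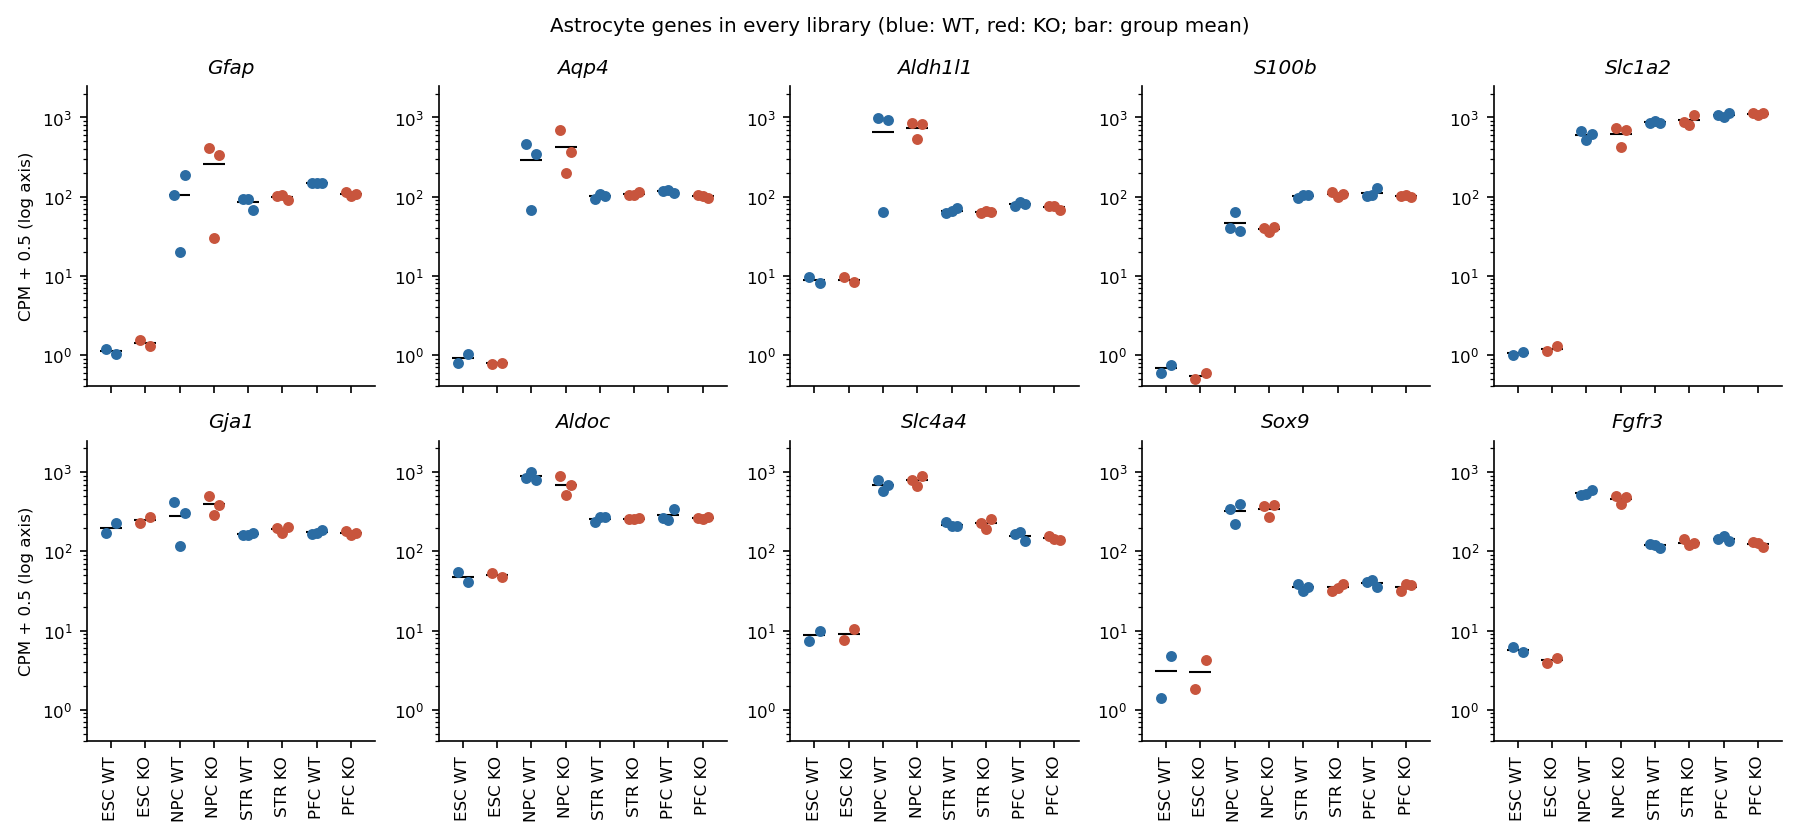
CPM plus 0.5 (log axis) of each of the 10 genes in all 22 libraries, with WT in blue, KO in red and the group mean as a bar. Of the 10 genes, 9 lie lowest in ESCs, *Gja1* does not, and the NPC points of *Gfap*, *Aqp4*, *Aldh1l1* and *Gja1* spread over a wider range than the brain points.

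In WT, 6 of the 10 genes were lower in brain than in NPCs and 2 were higher, in edgeR's quasi-likelihood test with an FDR under 0.05 and both regions averaged. Over all 16221 genes tested, 39.2% were called lower and 43.3% higher, and 82.6% in either direction, so a call in this comparison is common. The log2 differences, brain minus NPC, were -3.16 (SE 0.62) for *Aldh1l1*, -3.10 (SE 0.15) for *Sox9*, -2.07 (SE 0.08) for *Fgfr3*, -1.90 (SE 0.11) for *Slc4a4*, -1.69 (SE 0.12) for *Aldoc* and -1.41 (SE 0.44) for *Aqp4*, with FDRs between 2.3e-09 and 0.0163. *S100b* was higher in brain by 1.20 (SE 0.18, FDR 1.0e-04) and *Slc1a2* by 0.70 (SE 0.10, FDR 9.3e-05). *Gja1* (-0.73, SE 0.31, FDR 0.0538) and *Gfap* (0.12, SE 0.52, FDR 0.84) did not pass. The median of the 10 log2 differences was -1.55, against 0.09 over all genes. Of the 10 differences 7 were negative, as were 47.6% over all genes.

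WT NPC replicate 2 decided several of these values. Without it *Gja1* passed (-1.10, FDR 1.6e-06), *Gfap* was at -0.38 (FDR 0.0739), and *Aqp4* was at -1.88 (FDR 3.8e-09). Without WT NPC replicate 1 or 3, in contrast, *Aqp4* no longer passed, with an FDR up to 0.104. With the prefrontal cortex alone or the ventral striatum alone against NPCs, again 6 genes were lower and 2 higher (over all genes 38% were called lower and 41.4% higher for PFC, and 36.9% lower and 42.6% higher for STR). In 6 of the 10 genes the WT NPC and brain libraries did not overlap, as in 74.3% of all genes.

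In KO samples all 10 genes passed, 8 lower in brain and 2 higher, where 39.8% of the 16100 genes tested were called lower and 43.6% higher. *Gfap* was at 414, 29.8 and 332 CPM in KO NPCs and between 89.4 and 113 CPM in the 6 KO brain libraries. The KO NPC libraries thus lay on both sides of brain, and the log2 difference of -1.32 (SE 0.54, FDR 0.0439) lost its call without any of 8 of the 9 libraries, with FDRs up to 0.227, and also without TMM scaling (FDR 0.118). Without KO NPC replicate 2 it was -1.86 (FDR 8.3e-09). *Gja1* (-1.11, SE 0.14), *Aqp4* (-1.99, SE 0.29) and *Aldh1l1* (-3.42, SE 0.13) were lower in all 6 KO brain libraries than in all KO NPC libraries. *S100b* (1.45, SE 0.07) and *Slc1a2* (0.73, SE 0.17) were again higher.

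**Figure D2:**
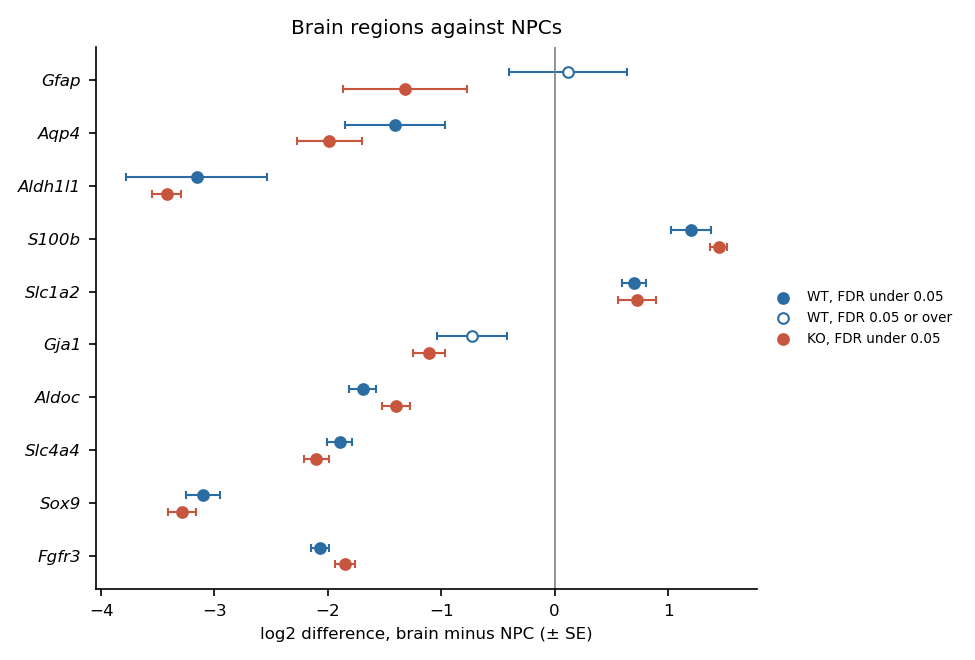
Log2 difference between the 2 brain regions and NPCs (brain minus NPC, bars ± SE) of the 10 genes in WT (blue) and KO (red), filled where the FDR of edgeR's quasi-likelihood test is under 0.05. *Sox9* (-3.10 in WT) and *Aldh1l1* (-3.16 in WT) lie farthest left and *S100b* (1.20 in WT) farthest right, and the bars of *Gfap* and *Aldh1l1* in WT are the widest.

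Cultures and tissue differ in age, growth and handling of the data as well as in cell type, and these cannot be told apart here. The count tables of ESCs and NPCs are marked as not stranded and those of brain carry no mark. Reads outside genes were 6.7% to 9.21% in NPCs and 9.38% to 15.4% in brain, and reads with several alignments 33.2% to 34.3% and 7.62% to 8.9%. *Aldh1l1* shares 604, *Slc1a2* 189 and *Fgfr3* 998 exon bases with other genes, those of *Slc1a2* and *Fgfr3* on the opposite strand and those of *Aldh1l1* on either strand, and the part of the counting in their differences was not tested.

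The relatives of the 10 genes did not follow them as families. Of 24 relatives 22 passed the filter on low counts, *Aqp1* and *Fgfr4* being too low. In WT 9 were higher in brain and 11 lower, where 43.3% and 39.2% of all genes tested were called. Beside *Gfap*, the filament genes *Vim* and *Nes*, which are those of radial glia and progenitors, were at 771 and 88.5 RPKM in WT NPCs and at 8.6 and 3.4 RPKM in WT STR. *Gfap* made up 2.55% ± 1.75 (SD, n = 3) of the summed RPKM of *Gfap*, *Vim*, *Nes* and *Des* in WT NPCs, 61.4% ± 6.21 (SD, n = 3) in WT STR and 68.7% ± 2.15 (SD, n = 3) in WT PFC. *Des*, the muscle filament gene, had 0 to 4 reads per NPC library and 13 to 42 per brain library.

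Among glutamate transporters, *Slc1a3* (GLAST), which is active in radial glia, was at 373 RPKM in WT NPCs and 39.8 RPKM in WT PFC. *Slc1a1*, the transporter of neurons, rose from 5.32 to 12.8 RPKM between the same groups. The share of *Slc1a2* in the summed RPKM of the 3 transporters was 9.66% to 11.9% in WT NPC libraries, 55.2% to 56% in WT STR and 60.9% to 61.3% in WT PFC, with no overlap between the tissues. Among connexins, *Gjb6* (connexin 30, the partner of connexin 43 in mature astrocytes) had 9, 2 and 0 reads in the WT NPC libraries and 362 to 869 reads in the WT brain libraries. *Gjc1* was lower in brain than in NPCs (-1.89).

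The remaining families split as well. *Aldoa*, the aldolase of most tissues, was at 430.2 RPKM in WT NPCs and 96 RPKM in WT PFC, against 271 and 87.5 RPKM of *Aldoc*. Of the S100 genes, *S100a10* (-3.26) and *S100a6* (-0.81) were lower in brain, opposite to *S100b*, and *S100a1* did not pass (0.10, FDR 0.78). Of the bicarbonate transporters, *Slc4a7* was lower in brain (-2.57) like *Slc4a4*, whereas the neuronal gene *Slc4a8* (1.82) was higher, and *Slc4a10* had 19, 4 and 39 reads in the WT NPC libraries against 1609 to 2969 in WT brain. *Sox8* fell with *Sox9* from NPCs to brain (-2.29), and *Sox10*, the factor of the oligodendrocyte lineage, did not pass (-0.85, FDR 0.29). *Sox10* was at 216.5, 5.93 and 139 CPM in WT NPCs and between 59 and 84.1 CPM in WT brain. WT NPC replicate 2 thus lay below brain and the other NPC libraries above it. *Fgfr1* was lower in brain (-2.13) like *Fgfr3*, and *Fgfr2* higher (1.08). *Aldh1l2*, the mitochondrial relative of *Aldh1l1*, was lower in brain (-2.98), and *Aqp9* higher (1.01) at levels under 1 RPKM.

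**Figure D3:**
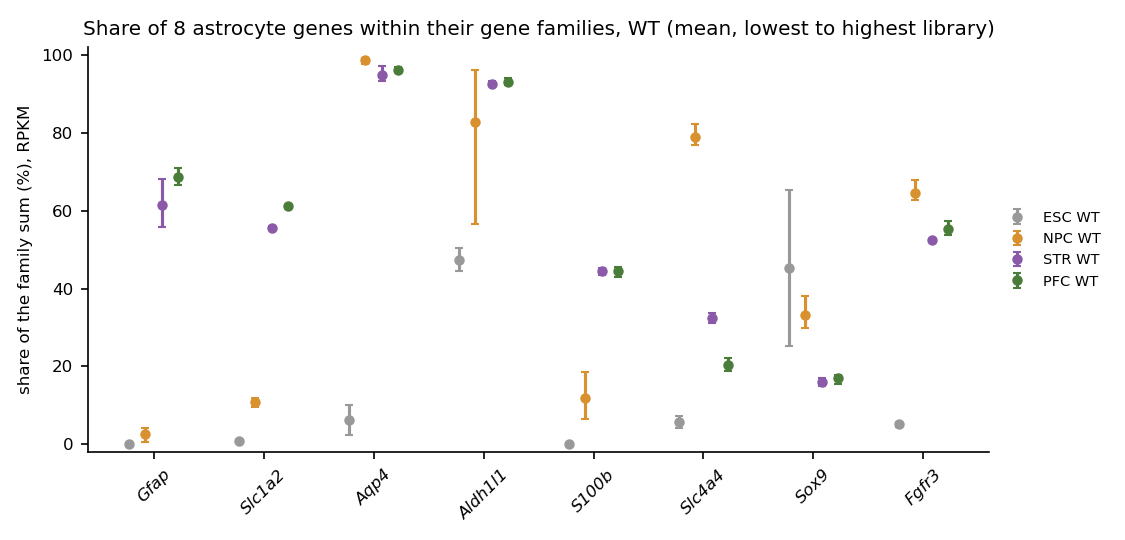
Share of 8 of the 10 genes in the summed RPKM of the gene and its relatives, in percent, as the mean of the WT libraries of each tissue with a bar from the lowest to the highest library. *Gfap*, *Slc1a2* and *S100b* take a larger share in brain than in NPCs, and *Slc4a4*, *Sox9*, *Fgfr3* and *Aqp4* a smaller one. The NPC bar of *Aldh1l1* overlaps those of both regions.

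Other genes known from astrocytes were described by lists. Of all genes tested between WT NPCs and WT brain, 39.2% were called lower in brain and 43.3% higher, the shares that stand beside each list here. Of 36 further genes of mature astrocytes, 22 were lower and 10 higher in WT brain than in WT NPCs, with a median log2 difference of -1.05. The cell adhesion gene *Hepacam* (-2.50, SE 0.07) and the glycogen-targeting subunit *Ppp1r3c* (-3.02, SE 0.12) fell, and *Fam107a* had 1, 1 and 0 reads in the WT NPC libraries against a mean of 261 CPM in WT brain. Of 31 gliogenic transcription and signalling genes tested, 21 were lower and 5 higher, led by *Olig2* (-4.61, SE 0.11), *Stat3* (-2.21, SE 0.07) and *Id3* (-2.49, SE 0.08). Reactive astrocyte genes divided into 8 lower and 7 higher of 19 tested, with *Vim* (-6.26, SE 0.16), *Emp1* (-6.21, SE 0.15) and *Timp1* (-6.07, SE 0.25) as the leading ones. Of 11 genes of glycogen and lactate metabolism 7 were lower, among them glycogen synthase *Gys1* (-3.13, SE 0.15) and lactate dehydrogenase *Ldha* (-3.12, SE 0.13), and 3 were higher. The named genes are up to 3 per list with the smallest p-values. Markers of other cells moved in this comparison too. Of 10 markers each, 9 for neurons, 10 for microglia and 9 for endothelial and mural cells were higher in WT brain. Of 6 oligodendrocyte progenitor markers 4 were lower in brain (median of the 6 -3.16), and of 12 neural stem and progenitor markers 11 were lower (median -4.30), the direction of the 6 lower genes. Of 10 oligodendrocyte markers 4 were higher and 1 lower. The part of these markers in the values above was not tested. In tissue RNA, fewer cells of a type and less RNA per cell cannot be told apart.

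Between the 2 brain regions of WT animals, 4 of the 10 genes were higher in PFC and 1 was higher in STR, against 13% and 11.4% of the 15555 genes tested. With an unadjusted p under 0.05 there were 5 of the 10, against 34.9% of all genes. *Gfap* showed the largest difference, with the libraries given above, at 0.78 on the log2 scale (PFC minus STR, SE 0.12, FDR 6.4e-04). *Slc1a2* (0.29, SE 0.09, FDR 0.0317), *Aldh1l1* (0.27, SE 0.09, FDR 0.0432) and *Fgfr3* (0.27, SE 0.08, FDR 0.0389) were also higher in PFC. *Slc4a4* was lower in PFC (-0.48, SE 0.10, FDR 0.0059). For these 5 genes the WT PFC and WT STR libraries did not overlap, which held for 39.5% of all genes (21.9% with PFC above and 17.6% with PFC below), and *Aqp4* did not overlap either but missed the threshold (0.18, FDR 0.145).

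In the fit without a replicate block the calls of *Slc1a2*, *Aldh1l1* and *Fgfr3* were fragile. Each was lost without any of 4 or 5 of the 6 libraries, with FDRs up to 0.159, while the differences stayed between 0.21 and 0.34. *Gfap* and *Slc4a4* kept their calls without each library in turn. With all 22 libraries in 1 fit none of the higher calls remained. Blocked on replicate number, which paired the regions, the FDRs were 0.0476 for *Slc1a2*, 0.0061 for *Aldh1l1* and 0.0082 for *Fgfr3*. *Aqp4* stayed above the threshold in that fit (FDR 0.0542).

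In KO animals *Slc4a4* was the only one of the 10 genes that passed, where 27.7% of the 15538 genes tested were called. It was at 226, 192 and 258 CPM in KO STR and at 157, 143 and 139.7 CPM in KO PFC, without overlap, and the log2 difference was -0.64 (SE 0.10, FDR 0.0018). Without STR KO replicate 1, the library with hypothalamus markers, it was -0.64 (FDR 0.0036). *Gfap* was at 101, 105 and 89.4 CPM in KO STR and at 113, 101 and 107 CPM in KO PFC, so that the regions overlapped (0.09, SE 0.08, FDR 0.493). The difference of *Slc1a2* was 0.25 (SE 0.11, FDR 0.117), against 0.29 in WT, and it passed in the fit blocked on replicate number (0.26, FDR 0.0266). In KO animals 4 of the 10 genes had a positive and 6 a negative difference, against 9 and 1 in WT, where 51.2% of all genes were negative, as were 54% in KO.

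Lists of other astrocyte genes were compared between the regions as well. Of 36 mature astrocyte genes 4 were higher in WT PFC and 0 lower, where 13% and 11.4% of all genes tested were called. Among the 4 were *Chrdl1*, which encodes a BMP-binding protein (1.15, SE 0.17), and the thyroid hormone deiodinase *Dio2* (0.41, SE 0.09). The mitochondrial glutamate carrier *Slc25a18* (0.65, SE 0.13) was another. Of the 36 differences, 12 were negative. In KO animals 2 of the 36 were higher and 6 lower, where 13.8% and 13.9% of all genes tested were called. The GABA transporter *Slc6a11* (-0.68, SE 0.12) and *Mlc1*, a membrane protein of endfeet (-0.34, SE 0.06), led the lower ones. Of the gliogenic genes tested 8 were higher and 5 lower in each genotype, with *Nfix* higher in PFC (1.59 in WT and 1.56 in KO) and *Zbtb20* (-1.24 and -1.50) and *Id4* (-0.93 and -1.13) lower. Reactive genes were higher for 5 and lower for 1 of 17 tested in WT, led by *S1pr3* (0.88), *Serpina3n* (0.81) and *Aspg* (1.60). Of the glycogen and lactate genes 3 were higher in WT PFC and 1 lower, with *Pygm*, muscle-type glycogen phosphorylase, at 0.70 (SE 0.13). In KO animals none of those 11 passed. Among relatives of the 10 genes 8 were higher in WT PFC and 1 lower, led by *Slc4a8* (0.70), *Gjb6* (0.66) and *Slc4a7* (-0.69).

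Oligodendrocyte markers stood beside these differences. Of 10 such markers 4 were higher in WT PFC than in WT STR and 0 lower, and summed they were at 1998, 2107 and 2599 CPM in WT PFC and at 1695, 1976 and 1862 CPM in WT STR. In WT all 10 differences were positive, with a median of 0.30, and in KO 9 of the 10 were negative, with a median of -0.25 and none called. The 6 markers of oligodendrocyte progenitors were all negative in KO, with 3 called and a median of -0.35. The part of these cells in the astrocyte values was not tested.

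The comparison of KO with WT asks whether loss of *Phf8* changes these genes in each tissue. In PFC, *Gfap* was at 147, 149.9 and 149 CPM in WT, compared with 113, 101 and 107 CPM in KO libraries. Every KO library lay below every WT library, and each genotype was within a narrow range. *Gfap* fell by 0.49 on the log2 scale (SE 0.07, FDR 0.0114 by edgeR's quasi-likelihood fit). It was the only one of the 10 genes that passed, where 0.475% of the 15364 genes tested were called lower and 0.638% in either direction. The FDR was 0.0505 without WT replicate 2, 0.117 without KO replicate 2, 0.145 without KO replicate 3 and 1 with all 22 libraries in 1 fit, while the log2 difference without each library in turn stayed between -0.53 and -0.45. In DESeq2 the adjusted p was 4.6e-05.

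*Aqp4* was at 117, 122 and 112 CPM in WT PFC and at 105, 100.2 and 96.3 CPM in KO PFC, and its log2 difference was -0.23 (SE 0.07, FDR 0.188). *Fgfr3* was at 141, 158 and 136 CPM in WT, compared with 129, 126 and 112 CPM in KO libraries, with a log2 difference of -0.25 (SE 0.08, FDR 0.218). Both genes had every KO library below every WT library without passing the threshold, as had *Aldh1l1* (-0.16, SE 0.08, FDR 0.498). In all, 4 of the 10 genes had no overlap with KO lower, against 8.39% of all genes. The other 6 overlapped, with log2 differences from -0.18 for *Sox9* to 0.02 for *Slc1a2*. The median of the 10 was -0.15, and that of all genes -0.02.

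The other astrocyte lists held no call in PFC in edgeR. The 36 mature astrocyte genes had 33 negative and 3 positive differences with a median of -0.15, and the smallest p-values belonged to *Lcat* (-0.47, FDR 0.131), *Prodh* (-0.34, FDR 0.133) and *Fam107a* (-0.32, FDR 0.146). Medians were -0.07 for 31 gliogenic genes, where *Olig2* was at -0.60 (FDR 0.0701), -0.19 for 17 reactive genes and -0.25 for 11 glycogen and lactate genes, where the glucose transporter *Slc2a1* was at -0.29 (FDR 0.0911). Over all genes 55.9% of the differences were negative. Of the relatives, *Sox10*, a gene of the oligodendrocyte lineage, fell (-0.59, SE 0.12, FDR 0.0471).

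Oligodendrocyte markers fell in the same libraries. Of 10 markers 7 passed, all lower in KO PFC, led by *Mog* (-0.95, SE 0.10, FDR 0.0037), *Opalin* (-0.98, SE 0.11, FDR 0.0047) and *Cldn11* (-0.64, SE 0.09, FDR 0.0102). Their sum was at 1998, 2107 and 2599 CPM in WT PFC and at 1708, 1585 and 1606 CPM in KO PFC, with no marker at 0, and their part in the fall of *Gfap* was not tested. The 10 endothelial and mural markers, all with negative differences and none called, had sums of 422 to 522 CPM in WT and 370.5 to 450.1 CPM in KO PFC. Neuron markers had a median of 0.00 and none passed.

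In STR none of the 10 genes passed in edgeR or in DESeq2, and 1 had an unadjusted p under 0.05 in edgeR, where none of the 15476 genes tested was called (0%) and 8.7% had an unadjusted p under 0.05. That gene was *Gja1*, at 161, 161 and 171 CPM in WT, compared with 196, 168 and 203 CPM in KO STR, with 1 KO library within the WT range and a log2 difference of 0.21 (SE 0.08, FDR 0.517). *Gfap* was at 93.2, 94.1 and 67.8 CPM in WT, compared with 101, 105 and 89.4 CPM in KO STR (0.22, SE 0.13, FDR 0.684), with overlap. The median of the 10 differences was 0.09 and their range -0.04 to 0.22, with SEs of 0.08 to 0.13, and 2 of the 10 were negative against 49.4% of all genes. No gene of the 10 had its genotypes apart, where 6.49% of all genes were above and 6.69% below in every KO library. *Phf8* itself missed the threshold in edgeR in this tissue (-1.37, FDR 0.0956).

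The other astrocyte lists held no call in STR in edgeR either. The 36 mature astrocyte genes had 23 positive and 13 negative differences with a median of 0.05, and of 18 reactive genes 15 were positive with a median of 0.30. The 4 hypothalamus markers tested were positive with a median of 3.10, the library with 202 CPM being KO replicate 1. Of 7 ependymal and choroid plexus markers 6 were positive (median 0.32), and their sum was at 85.4 to 89.5 CPM in WT and 94.2 to 116 CPM in KO STR. The sum of the reactive genes was highest in KO replicate 1 too, at 330.2 CPM, against 299 and 238 CPM in the other KO libraries and a median of 247 CPM in WT. The part of these markers in the values of the 10 genes was not tested.

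The KO effect in PFC was set against that in STR as an interaction. None of the 10 genes passed in edgeR, where 1 of 16028 genes was called (0.00624%), and 3 had an unadjusted p under 0.05, against 6.41% of all genes. These 3 were *Gfap*, *Aqp4* and *Fgfr3*. *Gfap* had a difference of effects of -0.68 (PFC minus STR, SE 0.15, FDR 0.384), *Aqp4* of -0.30 (SE 0.10, FDR 0.635) and *Fgfr3* of -0.35 (SE 0.12, FDR 0.645). In DESeq2 the adjusted p of *Gfap* was 0.0426, and over the other settings in edgeR its FDR ran from 0.0591 with no filter to 1. All 10 differences of effects were negative, from -0.68 to -0.03, and over all genes 48.6% were. Their median was -0.18. Differences of effects were negative as well for 10 of 10 oligodendrocyte markers (median -0.49), 6 of 6 oligodendrocyte progenitor markers (-0.36), 10 of 10 endothelial and mural markers (-0.14) and 4 of 4 hypothalamus markers tested (-2.92), none of them called. Neuron markers were divided into 5 negative and 5 positive. The part of these markers in the values of the 10 genes was not tested. The WT and KO PFC and STR libraries that enter this test are those of the comparisons above, so the values are the same measurements in another arrangement.

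**Figure D4:**
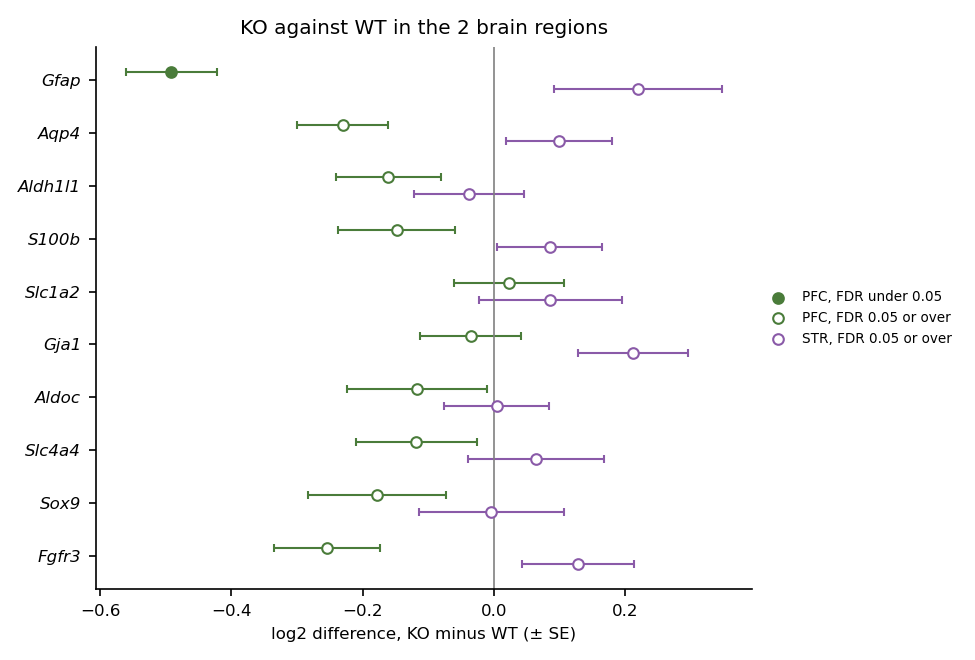
Log2 difference between KO and WT (KO minus WT, bars ± SE) of the 10 genes in PFC (green) and STR (purple), filled where the FDR of edgeR's quasi-likelihood test is under 0.05. The single filled point is *Gfap* in PFC at -0.49, and in STR the points lie between -0.04 and 0.22.

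In NPCs none of the 10 genes passed in edgeR or DESeq2, and none had an unadjusted p under 0.05, where 1 of 14351 genes was called (0.00697%) and 3.03% had an unadjusted p under 0.05. For 1 of the 10, *Fgfr3*, every KO library lay below every WT library, against 4.61% of all genes below, 3.57% above and 8.17% in either direction. Of the differences 3 were negative, against 48.9% over all genes. *Gfap* was at 105, 19.5 and 187 CPM in WT, compared with 414, 29.8 and 332 CPM in KO NPCs, so that the genotypes overlapped widely. Its log2 difference was 1.32 (SE 1.05, FDR 1), and 1.20 in the fit blocked on replicate number (FDR 0.441). Within each replicate number the KO library was higher, by 1.97, 0.60 and 0.83 on the log2(CPM + 0.5) scale. The same held for *Aqp4* and *Gja1*, 3 of the 10 genes in all, and *Fgfr3* was lower in all 3 pairs. Shares over all genes were not counted for these pairs. *Aldh1l1* had a difference of 3.08 in replicate number 2 and of -0.20 and -0.17 in the others. The SEs of the 10 genes without the block ran from 0.12 to 1.05, and in the blocked fit the FDRs ran from 0.402 to 0.995.

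The NPC libraries themselves differed more than the genotypes. Replicate 2 was the lowest library for 7 of the 10 genes in WT and for 10 of 10 in KO. How often it was lowest over all genes was not counted. *Gfap* in replicate 2 was at 0.133 (WT) and 0.08 (KO) of the mean of the other 2 libraries, *Aqp4* at 0.169 and 0.374, *Aldh1l1* at 0.0659 and 0.638 and *Gja1* at 0.324 and 0.659. *S100b* (1.66 in WT, 0.882 in KO), *Aldoc* (1.21 and 0.666) and *Fgfr3* (0.947 and 0.801) changed less. The sum of 10 oligodendrocyte markers was also low in replicate 2, at 228 CPM against 2889 and 2500 CPM in WT, compared with 436 CPM against 3387 and 2055 CPM in KO NPCs. The proliferation marker *Mki67* was at 1.5 (WT) and 1.68 (KO) times the mean of the other libraries. These ratios describe single libraries and carry no test. Without replicate 2 of both genotypes, a setting chosen after seeing the data, none of the 10 genes passed and *Gfap* was at 1.36 (FDR 0.904).

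**Figure D5:**
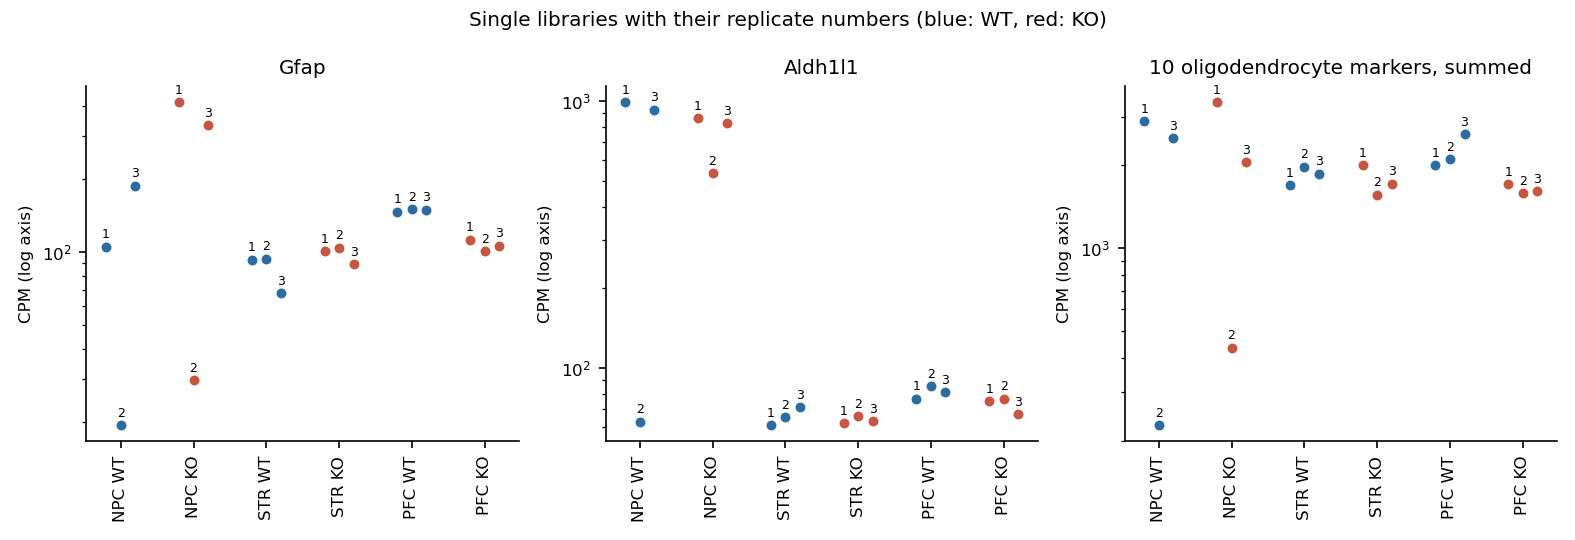
CPM (log axis) of *Gfap*, *Aldh1l1* and the sum of 10 oligodendrocyte markers in each NPC, STR and PFC library, with its replicate number, WT in blue and KO in red. NPC replicate 2 lies lowest of its group in all 3 panels, and the KO PFC libraries lie below the WT PFC libraries in the *Gfap* panel (101 to 113 against 147 to 149.9 CPM) and in the oligodendrocyte panel.

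In ESCs 6 of the 10 genes passed the filter, none was called in edgeR or DESeq2 and none had an unadjusted p under 0.05, where none of 15080 genes was called (0%) and 1.13% had an unadjusted p under 0.05. *Gja1* was at 169 and 229 CPM in WT, compared with 226 and 269 CPM in KO ESCs (0.31, SE 0.22, FDR 1). In the fit blocked on replicate number, which leaves 1 residual degree of freedom, *Gja1* passed (0.32, FDR 5.3e-07), as did 513 genes in all. *Fgfr3* was at 5.63 and 4.88 CPM in WT, compared with 3.45 and 3.94 CPM in KO ESCs (-0.51, SE 0.25, FDR 1), without overlap, KO being below WT as for 9.8% of genes (21.3% in either direction). Of the 6 differences 3 were negative, against 47.4% over all genes. *Phf8* itself was not called in edgeR in ESCs (-1.79, SE 0.22).

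The genes closest in pattern to the 10 were found by Pearson's r with their mean log2(CPM + 0.5). Over 22 samples and 16147 genes of at least 1 CPM on average the highest were *Agpat3* (r = 0.998), *Nwd1*, *Pfn2* and *Nebl* (0.996 each) and *Scrg1* (0.995). These points share the tissues, with ESCs far below the rest, so the values describe that contrast. Over the 12 brain samples, with the mean of each region and genotype subtracted, the highest included *Nkap* (0.962), *Plpp3* (0.946), *Gm2223* (0.946) and *Efcab14* (0.941). These 12 points share depth and library composition.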

How the data were processed

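RNA-seq of 22 samples was analysed. The deposited files hold raw read counts per gene: the authors prepared libraries with the TruSeq RNA kit, used STAR for alignment to the mm10 (GRCm38) genome, and took counts over Ensembl 75 genes from HTSeq. The submitters' processing notes name CASAVA 1.7. The tables of the cultures are marked as not stranded. For brain the strand setting, and for all samples the tool versions of aligner and counter, are not given in the sources used here.

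Symbols and positions came from GENCODE M21 (GRCm38), which matched 37693 of 39179 identifiers. Groups came from the labels. Tests used edgeR 4.0.16 (R 4.3.3): TMM scaling, the expression filter, quasi-likelihood F test and Benjamini-Hochberg adjustment over all genes tested, with a threshold of 0.05, fitted per comparison. CPM and RPKM were computed here. Alternatives were DESeq2 1.42.0, other scalings and filters, a replicate block, 1 common fit and leaving out each sample. The script was checked on simulated counts. Replicate numbers paired samples in NPCs (mean r of same-numbered deviations 0.599) and between regions (0.313 in WT, 0.168 in KO), not elsewhere, and ESCs held only 2 pairs. The genes, lists and naming rule (all 10 genes, their relatives, up to 3 genes per list and comparison by smallest p) were chosen with earlier results of these data known. Every pair of replicates differed beyond counting noise (chi-square divided by its degrees of freedom was 1.83 or more). Values of some related genes are not reported here.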

Additional observations from a re-analysis of the deposited data

How the results depend on the processing

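Over the 86 tests of the 10 genes, 1361 alternative values were computed, of which 1289 kept their side of the threshold, with the same direction or a shift under 1 SE, 52 lost their call, 11 gained one and 9 uncalled values changed sign by more than 1 SE. No called value changed sign.

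For KO against WT in PFC, the 1 lower gene became 0 with all 22 samples in one fit, 0 with a log2 difference beyond 1 added, and 0 to 1 with a replicate left out. In ESCs 1 gene was higher with the replicate block against 0. For PFC against STR in WT, 4 higher genes became 2 on total counts, 0 in the common fit, 0 with a log2 difference beyond 1 and 1 to 3 with a replicate left out. The single lower gene was 0 with a log2 difference beyond 1. For PFC against STR in KO, 0 higher genes became 1 in DESeq2, 1 with the replicate block and 0 to 1 with a replicate left out, and 1 lower gene became 3 on total counts, 1 to 2 with a replicate left out and 0 with a log2 difference beyond 1. Between NPCs and brain, 2 higher genes became 1 in WT and 1 in KO with a log2 difference beyond 1. In the interaction 1 gene was lower in DESeq2 against 0. *S100a1* turned to -0.28 (FDR 0.042) between NPCs and brain without WT NPC replicate 2, and ran from -0.28 to 0.38 with a replicate left out. The cause was not tested in any of these cases.

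Beside the calls that the replicate block gave to *Gja1* in ESCs and to *Slc1a2* in KO, it took the call of *Aqp4* between NPCs and brain in WT (FDR 0.0613) and of *Gfap* in KO (FDR 0.149). The mean r of same-numbered libraries in these comparisons was 0.0853 and 0.0647. Between STR and PFC alone it was 0.164 to 0.339 in WT and 0.14 to 0.174 in KO. Between NPCs and either region r was -0.0563 to 0.0296 in WT and -0.0378 to 0.0817 in KO. The block changed no other call of the 10 genes. Without TMM scaling the median of all genes between NPCs and brain rose from 0.09 to 0.44 in WT and from 0.08 to 0.42 in KO, and the share of called genes that were higher in brain from 52.5% to 64.6% in WT. Over all genes the number called in PFC was 98, and 1 to 379 in the alternatives. It was 0 in STR, and up to 53. In ESCs it was 0, and 513 with the block. In NPCs it was 1, and 0 to 5. In the interaction it was 1, and 0 to 19. Low counts limit the 10 genes in ESCs only.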
